A study of Mus musculus with 14 samples.

Results

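The IL-6 cytokine family was followed in mouse breast tumor cells and embryonic fibroblasts that were grown alone or together. It was represented by 10 genes of the 36413 gene names on the array, chosen by name. They were 4 ligands (Il6, Il11, Lif and Clcf1), 4 receptor subunits (Il6ra, Il6st, Osmr and Lifr), the transcription factor Stat3 and the inhibitor Socs3. All 10 passed the filter on dim genes, which asked for a signal well above background on both usable arrays of at least 1 group. The tumor cells were D2A1, a mouse mammary carcinoma line, and the mouse embryonic fibroblasts (MEFs) were Hsf1 +/+ (WT) or Hsf1 -/- (null), so the null cells lack the heat shock transcription factor HSF1. Each of 7 groups had 2 arrays: tumor cells alone, tumor cells grown with WT MEFs, tumor cells grown with null MEFs, and MEFs of either genotype grown without or with tumor cells. Co-cultures ran for 72 hours before the cell types were parted by cell sorting. For the profiles of tumor cells, and not for those of MEFs, the MEFs had first been treated with mitomycin C (10 µg/ml, 2 hours), which stops their division. Whether a MEF genotype stood for 1 line or several, and whether the 2 arrays of a group came from separate cultures, is not given in the sources used here. The p-values therefore measure only the spread between these samples.

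Cytokines of the IL-6 family signal through receptor complexes that share gp130, the product of Il6st. IL-6, IL-11 and CLCF1 first bind a ligand-specific receptor. LIF, CLCF1 and oncostatin M use gp130 together with the LIF receptor or the oncostatin M receptor. The complexes activate JAK kinases, which phosphorylate STAT3, and STAT3 induces Socs3, whose product in turn blocks gp130 signalling. In tumor stroma, fibroblasts are a known source of IL-6 and other ligands of the family.

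Levels are log2 units from the authors' value table, given per array or as a mean ± SD, and differences are log2 differences ± SE of the fit, with n = 2 arrays a group. Adjusted p-values are limma's, over all tested genes. All 7 A arrays lay on 1 slide and all 7 B arrays on another, so values are given for slide A and slide B. The scanner files of 2 arrays (tumor cells alone and tumor cells with null MEFs, both on slide A) were faulty, with 32.085% and 36.786% of spots marked as outliers against 0.246% to 5.745% on the other 12. Their values in the table correlated with those of the other arrays at 0.935 or more, but could not be traced to single spots. On the other 12 the share of spots well above background was 53.1% to 63.4%, and the number of arrays limits the precision throughout. Hsf1 itself was lower in null than in WT MEFs grown alone by 1.83 ± 0.12 (limma adjusted p = 1.12e-06), and its signal in null MEFs stayed above background. Where its probe lies relative to the deletion is not given in the sources used here.

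Genes typical of the partner were measured in the sorted cells, and whether their RNA was carried over in the sort or made by the sorted cells cannot be told apart. Genes at least 32-fold higher in the partner grown alone reached a median of 7.49% and 7.40% (slides A and B) of the partner's level in tumor cells sorted from WT MEFs. In tumor cells sorted from null MEFs the same medians were 9.83% and 22.1%. In WT MEFs sorted from tumor cells they were 37.7% and 38.4%, and in null MEFs 7.64% and 10.4%. The partner's level was read in sorted co-cultured cells of the partner type. For tumor cells these were MEFs without mitomycin C, since the treated MEFs had no arrays. For MEFs they were tumor cells grown with treated MEFs. Whether the treatment changed these levels was not tested. In bulk RNA, fewer cells of a type and less RNA per cell cannot be told apart. As an alternative, the median share of the partner's level was subtracted from each co-cultured array on the linear scale. This lowered most genes, with a median over all tested genes of -0.159 and -0.366 in tumor cells with WT and null MEFs and of -0.778 and -0.187 in WT and null MEFs with tumor cells. Each array was therefore also shifted back to its own median, a step chosen after seeing the data, and values called subtracted and centred below are those. The medians over all tested genes then ran from -0.007 to 0.169. The summed level of 13 fibroblast markers on the linear scale, given in kilo-units, was 231 to 264 in tumor cells alone, 412 to 431 with WT MEFs and 275 to 381 with null MEFs. In WT MEFs the summed level of 12 epithelial markers was 1.31 to 1.44 alone and 74.2 to 85.5 with tumor cells, and in null MEFs 4.09 to 4.93 and 28.0 to 41.4. In tumor cells alone it was 92.8 to 96.8. Leukocyte markers summed to 10.5 to 13.5 in the 3 tumor cell groups and 1.74 to 6.49 in the 4 MEF groups, and endothelial markers to 0.43 to 0.51 throughout. Nearly all of the epithelial sum in tumor cells alone is keratin 18 (Krt18, an intermediate filament of simple epithelia), at 16.50 ± 0.04 (SD) in tumor cells alone, and Epcam was not well above background in any group. Tumor cells alone also lacked a clear signal of Krt19, Cdh1, Cldn4, Ovol1 and Grhl2, so the epithelial label rests on few of the 12 markers here.

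**Figure D1:**
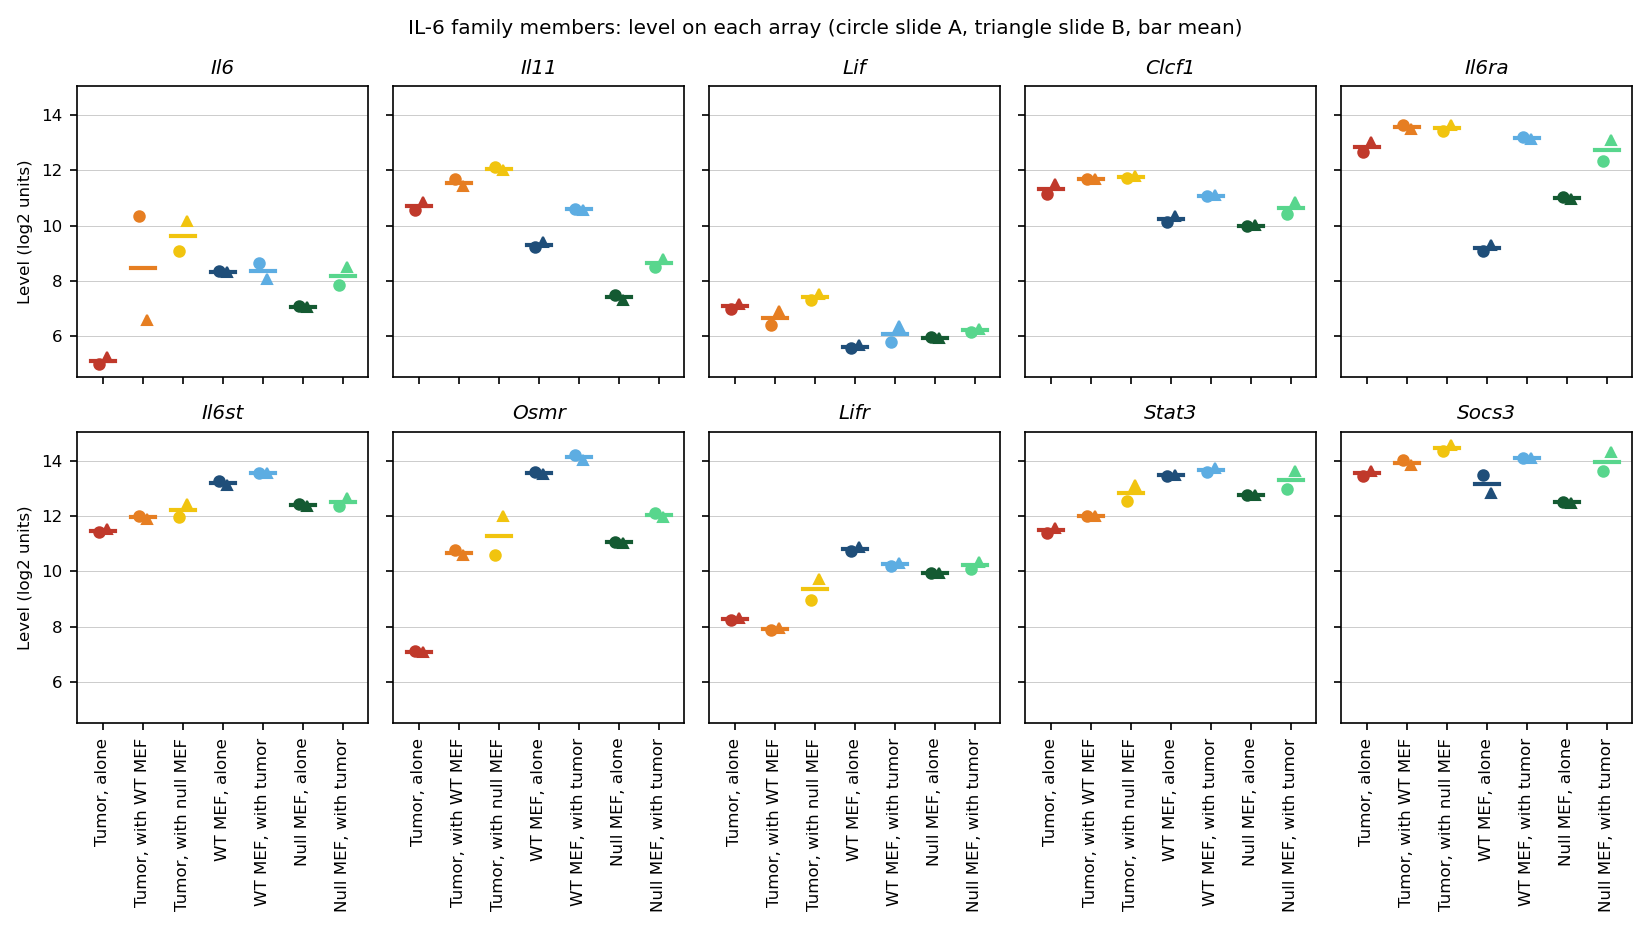
Level of each of the 10 IL-6 family members in log2 units (vertical axis) in the 7 groups, with a circle for slide A, a triangle for slide B and a bar for the mean of both arrays. Il6 in tumor cells with WT MEFs has the widest gap between arrays, 10.35 against 6.60, and Osmr in tumor cells alone lies far below every other group.

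Grown alone, the cell types differed in which members they expressed more. Tumor cells had more Il11, Lif, Clcf1 and Il6ra than either MEF type, whereas both MEF types had more Il6st, Osmr, Lifr and Stat3. Of the 10 members, 9 differed between tumor cells and WT MEFs (4 higher and 5 lower in tumor cells), where 51.4% of all tested genes did (27.8% higher, 23.6% lower). Against null MEFs 9 differed too (5 higher and 4 lower), where 52.6% of tested genes did (27.3% higher, 25.4% lower). The median difference of the members was -0.67 against WT MEFs and 0.06 against null MEFs, beside 0.08 and 0.07 over all tested genes. Il6 was 3.22 ± 0.89 lower in tumor cells than in WT MEFs (adjusted p = 0.0109), or at least 9.34-fold, since its level in tumor cells alone is only a bound. Socs3 was the member that did not pass against WT MEFs, at 0.39 ± 0.23 (adjusted p = 0.193). The calls of Il6, Lifr and Stat3 against WT MEFs and of Lif, Lifr and Stat3 against null MEFs were lost under some alternatives. The other calls held under every alternative run.

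In the fit as reported, members were higher in co-culture than alone in both cell types, and no member fell past the threshold in either. In tumor cells grown with WT MEFs 3 of 10 members rose (Il6, Il11 and Osmr), where 11.8% of tested genes passed in either direction, 7.04% up and 4.77% down. In tumor cells grown with null MEFs 8 of 10 rose, all except Lif and Clcf1, where 19.7% passed, 10.1% up and 9.60% down. Between tumor cells with WT and with null MEFs, 3 members were lower with WT MEFs (Lif, Lifr and Stat3), where 9.49% passed, 4.11% higher and 5.38% lower. The median difference of the members from tumor cells alone was 0.51 with WT MEFs and 1.0 with null MEFs, beside -0.04 and -0.09 over all tested genes. The comparisons with tumor cells alone share the arrays of that group. Under every alternative run, 1 of the 3 rises with WT MEFs and 2 of the 8 with null MEFs stayed past the threshold.

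In WT MEFs grown with tumor cells 4 of 10 members rose (Il6ra, Il11, Socs3 and Clcf1), where 10.5% of tested genes passed, 6.31% up and 4.20% down. In null MEFs 3 rose (Il6ra, Socs3 and Il11), where 3.14% passed, 2.81% up and 0.332% down. The medians were 0.52 and 0.82, beside -0.04 over all tested genes in each. Under every alternative run, 1 of the 4 rises in WT MEFs and 1 of the 3 in null MEFs stayed past the threshold. The response of WT and null MEFs differed for 1 member, Il6ra, where 3.03% of tested genes differed (1.96% higher and 1.07% lower in WT).

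Null MEFs had less Osmr, Il11 and Il6st than WT MEFs both alone and in co-culture, and more Il6ra alone. Whether Hsf1 or other differences between the MEFs of each genotype set these levels was not tested. In MEFs grown alone 6 of 10 members differed, 5 higher in WT (Osmr, Il11, Lifr, Il6st and Stat3) and Il6ra lower in WT. The background is high there, since 33.8% of tested genes differed, with 15.9% of tested genes higher and 17.9% lower in WT. In co-culture 3 of 10 members passed, all higher in WT MEFs (Osmr, Il11 and Il6st). That count is near the 29.5% of tested genes that passed in either direction, 14.8% higher and 14.7% lower. The members' medians were 0.75 and 0.41, beside -0.03 and 0.00 over all tested genes.

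**Figure D2:**
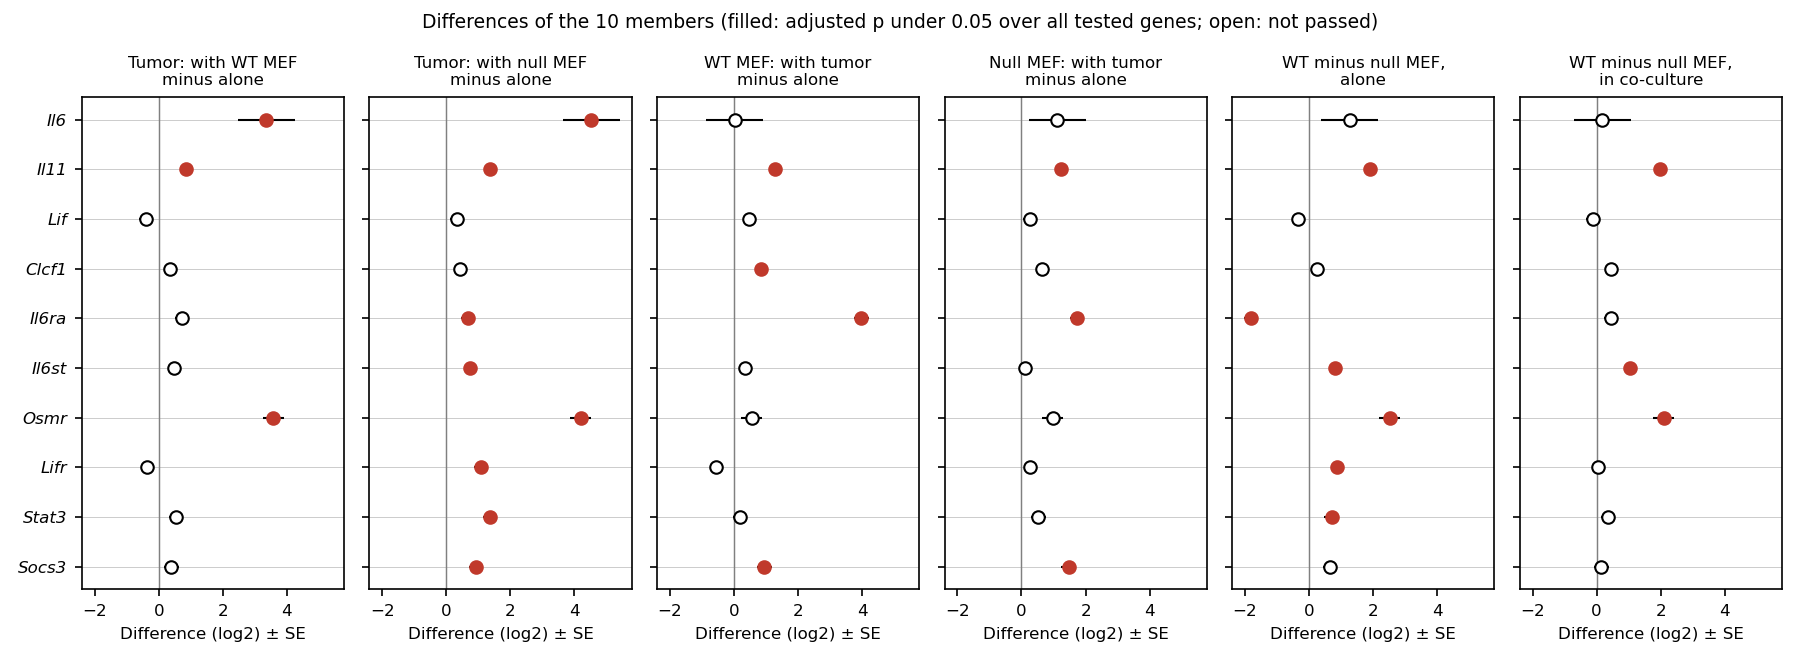
Log2 difference ± SE (horizontal axis) of the 10 members in 6 comparisons, filled where the limma adjusted p was under 0.05 over 25896 tested genes. In tumor cells with null MEFs 8 points are filled, with Il6 at 4.52 and Osmr at 4.19, and in WT MEFs with tumor cells Il6ra stands apart at 3.98.

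Il6 encodes the founding ligand of the family. Its probe (mm9, chr5:30346367-30346426) is printed as 2 spots on the array. In tumor cells alone Il6 stood at 4.99 and 5.24 (slides A and B). It was not well above background on slide B, and slide A has no usable scanner file. In tumor cells grown with null MEFs it stood at 9.09 and 10.17, and in tumor cells grown with WT MEFs at 10.35 and 6.60. Tumor cells with null MEFs were thus high on both slides, while those with WT MEFs were high on slide A only. The rise with null MEFs was 4.52 ± 0.89 (adjusted p = 0.00562), or at least 22.9-fold, because tumor cells alone give only a bound, with 4.10 and 4.93 on the slides.

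The value of tumor cells with WT MEFs on slide A rests on 1 spot. The 2 Il6 spots of that array read 9550 and 69.4, a ratio of 138, and the brighter was marked as an outlier by the scanner software. On slide B they read 74.0 and 64.4, and in tumor cells with null MEFs on slide B 1341 and 1309. The next widest pair on the 12 sound arrays read 423.9 and 259.6 (WT MEFs with tumor cells, slide B), and in tumor cells alone on slide B the pair read 7.7 and 7.0. The call of a rise with WT MEFs was kept under only 10 of 23 alternatives. The rise was 3.36 ± 0.89 (adjusted p = 0.0344) with the slide A array of tumor cells with WT MEFs, and 1.48 without it. Between tumor cells with WT and with null MEFs the difference was -1.16 ± 0.89 (adjusted p = 0.494) with it and -3.04 (adjusted p = 0.00265) without it, and it was 0.72 (adjusted p = 0.419) without the slide B array of tumor cells with WT MEFs. On the scanner values of the 12 sound arrays, with outlier spots left out, this difference was -4.25 (adjusted p = 0.000584). A group left with 1 array in these fits, tumor cells with WT MEFs in the former and with null MEFs in the latter, is assumed to vary like the others.

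**Figure D3:**
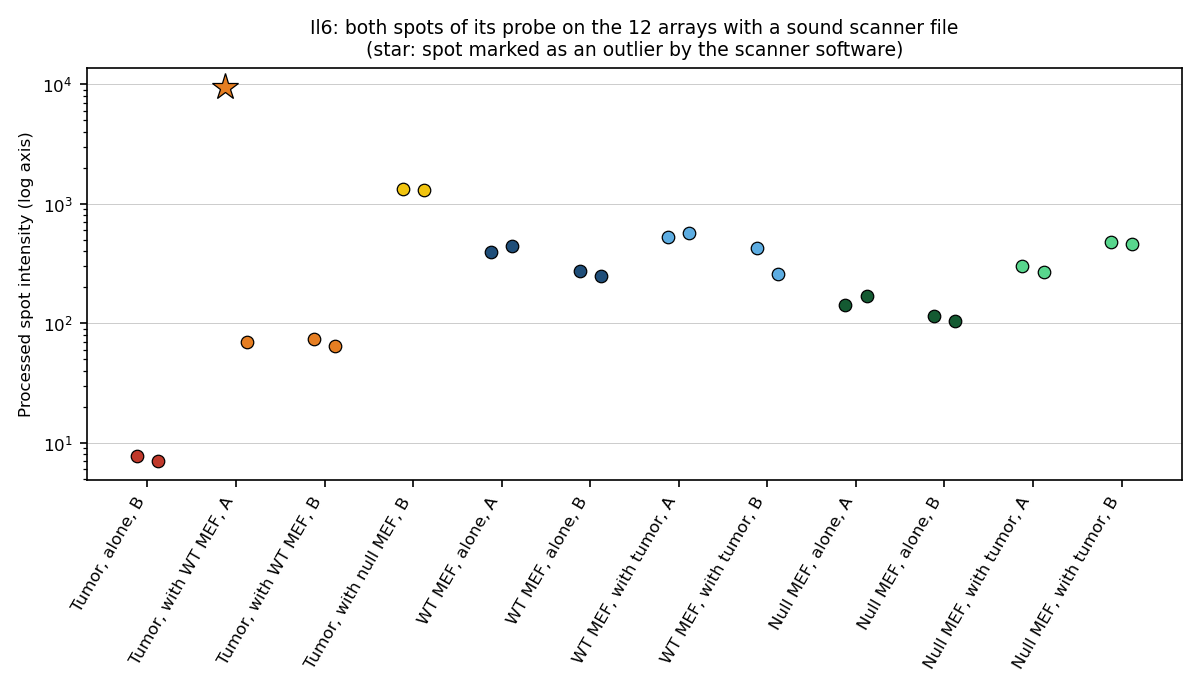
Processed intensity of both Il6 spots (vertical log axis) on each of the 12 arrays with a sound scanner file, with a star for a spot marked as an outlier. The star at 9550 stands far above its twin at 69.4 and above the spots of every other array, and tumor cells with null MEFs on slide B read 1341 and 1309.

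In MEFs Il6 was steadier. WT MEFs alone stood at 8.35 and 8.32 and with tumor cells at 8.65 and 8.08, so these groups overlap. Null MEFs alone stood at 7.08 and 7.06 and with tumor cells at 7.87 and 8.50, which does not overlap. WT MEFs alone exceeded null MEFs alone by 1.27 on each slide. That difference had an adjusted p of 0.333 in the fit of all arrays, whose variance for Il6 includes the array with the outlier spot, and of 0.016 without that array. The rise in null MEFs with tumor cells was 1.12 ± 0.89 (adjusted p = 0.814), and 0.17 was its adjusted p without that array. In tumor cells with null MEFs the gain of Il6 over tumor cells alone was 220% and 307% of the level in sorted co-cultured null MEFs. Those MEFs, unlike the ones grown with these tumor cells, had no mitomycin C. The gain was above 251 and 249 of 252 genes typical of null MEFs.

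Of the 10 members, 9 had a promoter window in RefSeq (GRCm38.p6), 11 windows in all, from 250 bases before to 50 bases after a transcript start. They were searched on both strands for a STAT palindrome (TTCNNNGAA), for paired heat shock units head to head (GAANNTTC) or tail to tail (TTCNNGAA) and for the NF-kB consensus, whose motifs can overlap. Of 32851 windows of this length, 8.30%, 7.86%, 8.52% and 4.51% held a match, in that order. Of the 11 member windows 1 held a STAT palindrome (Socs3), 1 a head-to-head heat shock pair (Il6st), 1 an NF-kB match (Il6) and 0 a tail-to-tail pair. These 3 promoters are shown because they carry the matches, which are a description of letters and not of binding.

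The Il6 promoter (GRCm38.p6, chr5:30012864-30013113, plus strand) is shown 5′ to 3′ up to the base before the start, with the NF-kB match, 44 to 35 bases before the start, in capitals. It has no STAT or heat shock match in the window.
Il6: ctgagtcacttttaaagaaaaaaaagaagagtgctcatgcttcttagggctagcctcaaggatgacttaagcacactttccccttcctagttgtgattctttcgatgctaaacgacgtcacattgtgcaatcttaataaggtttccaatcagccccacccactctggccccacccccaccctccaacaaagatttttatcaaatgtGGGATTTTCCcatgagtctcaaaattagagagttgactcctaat

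Il11 encodes a ligand that signals through its own receptor and gp130, and its level was highest in tumor cells with null MEFs. Tumor cells alone stood at 10.57 and 10.84, those with WT MEFs at 11.67 and 11.45 and those with null MEFs at 12.11 and 12.01, with no overlap among these groups. The rise was 0.86 ± 0.14 with WT MEFs (adjusted p = 0.0036) and 1.35 ± 0.14 with null MEFs (adjusted p = 0.000106). Both rises stayed past the threshold under every alternative run, between 0.72 and 0.99 and between 1.21 and 1.71. The direct difference between partners was -0.50 ± 0.14 and did not pass (adjusted p = 0.059), while it was -0.73 (adjusted p = 0.0407) subtracted and centred.

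WT MEFs had more Il11 than null MEFs in both settings. Alone they stood at 9.22 and 9.41 against 7.50 and 7.32, a difference of 1.90 ± 0.14 (adjusted p = 2.79e-06). With tumor cells they stood at 10.62 and 10.57 against 8.50 and 8.78, a difference of 1.96 ± 0.14 (adjusted p = 4.78e-06). Co-culture raised Il11 by 1.28 ± 0.14 in WT MEFs and by 1.23 ± 0.14 in null MEFs (adjusted p = 0.000191 and 0.000533). These MEF gains were at or under the share that genes typical of tumor cells reached: 29.9% and 30.1% in WT MEFs, above 24 and 25 of 77 genes typical of tumor cells, and 4.09% and 6.78% in null MEFs, above 17 and 26 of 90. Subtracted and centred, the difference was 0.25 in WT MEFs (adjusted p = 0.422), so that call was lost. In null MEFs it became -2.56 (adjusted p = 3.79e-05), a size that rests in part on a floor, since the subtraction took slide B down to the dimmest level well above background on that array. The excess of WT over null MEFs in co-culture stayed past the threshold under every alternative run, between 1.82 and 4.71.

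Lif encodes the ligand of the LIF receptor. It stood at 7.0 and 7.16 in tumor cells alone, 6.41 and 6.93 with WT MEFs and 7.30 and 7.52 with null MEFs. Lif was lower with WT than with null MEFs by 0.74 ± 0.20 (adjusted p = 0.0434), a call that was lost under 16 of 23 alternatives. In MEFs Lif lay between 5.56 and 6.36, and it was not well above background on slide A in WT MEFs alone, null MEFs alone or tumor cells with WT MEFs. No MEF comparison of Lif passed in the fit as reported, with differences from -0.34 to 0.47. Subtracted and centred it was 0.20 in WT MEFs with tumor cells (adjusted p = 0.612) and -0.24 between the MEF types in co-culture (adjusted p = 0.46). Without the centring these were -0.74 and -1.0, and both passed (adjusted p = 0.00685 and 0.00179).

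Clcf1 encodes a ligand of the family. In tumor cells it differed little, at 11.15 and 11.51 alone, 11.67 and 11.69 with WT MEFs and 11.73 and 11.78 with null MEFs. Neither rise passed, at 0.35 ± 0.16 and 0.42 ± 0.16 (adjusted p = 0.197 and 0.0907), though the second passed with the slide as a block (adjusted p = 0.0353) and at 0.69 when subtracted and centred (adjusted p = 0.0411). WT MEFs rose from 10.12 and 10.34 to 11.06 and 11.12, by 0.85 ± 0.16 (adjusted p = 0.00631). That gain was 31.3% and 27.9% of the tumor cells' level, and subtracted and centred the difference was 0.57 and did not pass (adjusted p = 0.0744). Null MEFs went from 9.97 and 10.02 to 10.42 and 10.86, a difference of 0.65 ± 0.16 (adjusted p = 0.0639, or 0.0177 with the slide as a block).

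Il6ra encodes the ligand-binding chain of the IL-6 receptor, and it showed the steepest change of any member in MEFs. WT MEFs alone stood at 9.07 and 9.30, the lowest of all groups, and WT MEFs with tumor cells at 13.19 and 13.15. The rise was 3.98 ± 0.22 (adjusted p = 5.47e-07), or 15.8-fold, with 4.12 and 3.85 on the slides. Null MEFs alone already stood at 11.03 and 10.96 and reached 12.34 and 13.10, a rise of 1.72 ± 0.22 (adjusted p = 0.00083). Levels of the co-cultured MEFs ended near those of tumor cells, which stood at 12.68 and 13.02 alone.

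The starting levels set the MEF types apart more than the levels reached. Alone, WT MEFs were 1.81 ± 0.22 lower than null MEFs (adjusted p = 7.82e-05), and in co-culture the difference was 0.45 ± 0.22 (adjusted p = 0.152). The test of the difference between the responses gave 2.26 ± 0.30 (adjusted p = 0.0024), with 2.81 and 1.71 on the slides. The gain in WT MEFs was 69.0% and 72.8% of the tumor cells' level, above 72 and 74 of 77 genes typical of tumor cells. In null MEFs it was 27.8% and 52.6%, above 84 and 89 of 90. Subtracted and centred, Il6ra still rose by 3.92 in WT MEFs (adjusted p = 4.91e-06) and 1.66 in null MEFs (adjusted p = 0.00583), and the responses differed by 2.26 (adjusted p = 0.0103).

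Krt18 moved with Il6ra in the same MEFs. It went from 8.01 ± 0.24 in WT MEFs alone to 16.26 ± 0.15 with tumor cells and from 7.65 ± 0.36 to 14.87 ± 0.43 in null MEFs. Of the 10 tested epithelial markers 3 rose in WT MEFs (Krt18, Krt8 and Cldn3) and 2 fell (Krt19 by 1.31 and Cldn7 by 0.49, adjusted p = 0.0116 and 0.0462). In null MEFs 1 rose (Krt18). Their part in the change of Il6ra beyond the median share was not tested. In tumor cells Il6ra differed little: 13.64 and 13.50 with WT MEFs and 13.44 and 13.65 with null MEFs. The rises over tumor cells alone were 0.72 ± 0.22 (adjusted p = 0.0568) and 0.69 ± 0.22 (adjusted p = 0.047), and the second was lost under 18 of 24 alternatives. With the slide as a block the first passed (adjusted p = 0.0301).

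**Figure D4:**
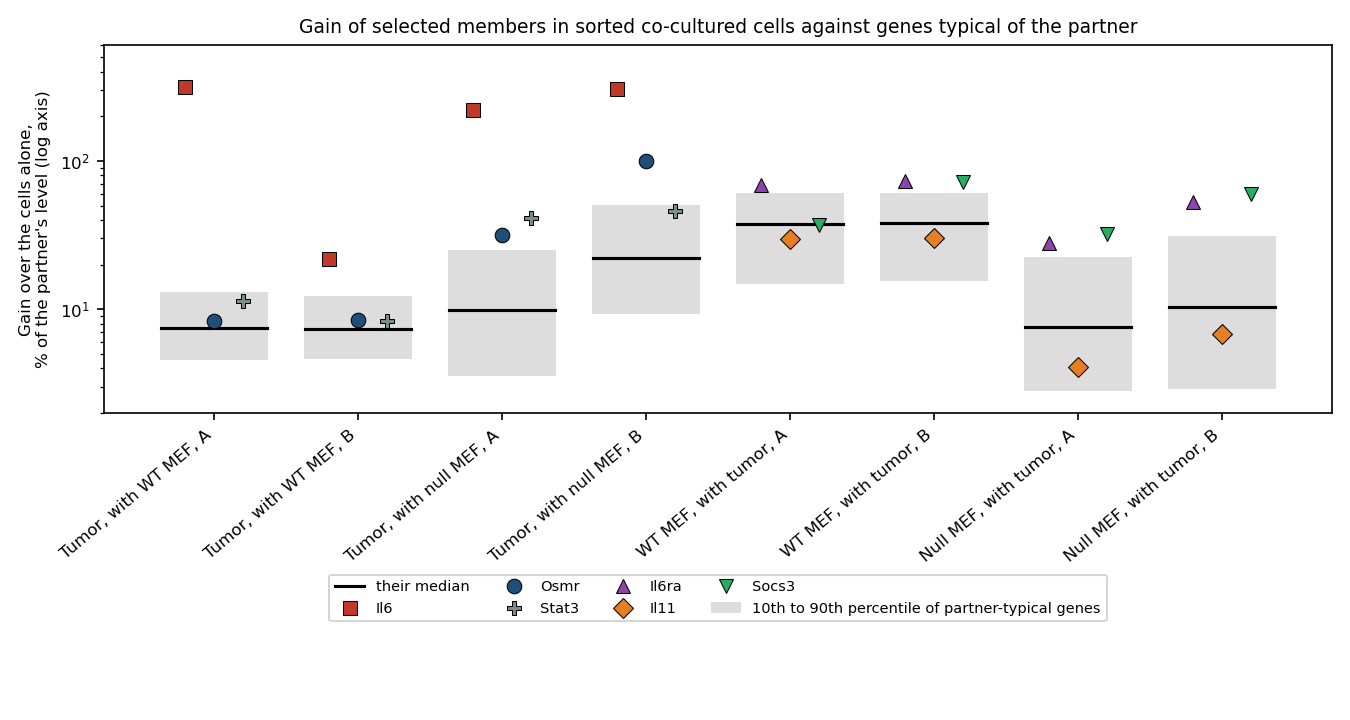
Gain of selected members over the same cells grown alone, as a percentage of the partner's level (vertical log axis), in each sorted co-cultured array. For tumor cells the partner's level comes from co-cultured MEFs without mitomycin C. Grey bars run from the 10th to the 90th percentile of the genes typical of the partner and black lines mark their medians; Osmr at 8.37% and 8.42% lies near the medians of 7.49% and 7.40% in tumor cells with WT MEFs, while Il6ra lies above the grey bars in all 4 MEF arrays.

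Il6st encodes gp130, the chain common to the family's receptors. It was highest in WT MEFs, at 13.26 and 13.14 alone and 13.55 and 13.55 with tumor cells. Null MEFs stood at 12.44 and 12.36 alone and 12.36 and 12.67 with tumor cells, and tumor cells lowest at 11.42 and 11.52. WT MEFs exceeded null MEFs by 0.80 ± 0.15 alone (adjusted p = 0.00212) and by 1.03 ± 0.15 in co-culture (adjusted p = 0.000513), and both calls held under every alternative run. In tumor cells Il6st rose with null MEFs by 0.74 ± 0.15 (adjusted p = 0.00759), to 11.98 and 12.43, but not past the threshold with WT MEFs (0.49 ± 0.15, adjusted p = 0.0677). The first call was lost under 3 of 24 alternatives: without tumor cells with null MEFs on slide B (0.51, adjusted p = 0.0565), on the scanner values with 75th percentile scaling (0.85, adjusted p = 0.0529) and with each cell type fitted alone (0.74, adjusted p = 0.0588). Subtracted and centred it was 0.81 (adjusted p = 0.0156). The rise with WT MEFs passed without either array of tumor cells with null MEFs (adjusted p = 0.0265). In WT MEFs the difference with tumor cells passed when subtracted and centred (1.1, adjusted p = 0.0033). Without the centring it was 0.16 and did not pass (adjusted p = 0.287).

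The Il6st promoter (GRCm38.p6, chr13:112463820-112464069, plus strand) holds the head-to-head heat shock pair, 228 to 221 bases before the start. It is in capitals below, and no other searched motif was found in this window.
Il6st: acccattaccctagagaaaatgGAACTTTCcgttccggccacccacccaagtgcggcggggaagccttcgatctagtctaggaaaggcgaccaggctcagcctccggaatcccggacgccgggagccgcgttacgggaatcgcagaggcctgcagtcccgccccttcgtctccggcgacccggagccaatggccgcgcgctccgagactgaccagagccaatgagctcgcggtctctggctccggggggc

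Osmr encodes the oncostatin M receptor subunit, and it was the member with the widest range over the groups. Tumor cells alone stood at 7.12 and 7.07, WT MEFs at 13.59 and 13.53 alone and 14.21 and 14.03 with tumor cells. Null MEFs stood at 11.08 and 11.02 alone and 12.11 and 11.96 with tumor cells. WT MEFs thus had more Osmr than null MEFs on every array, by 2.51 ± 0.33 alone (adjusted p = 0.000157) and 2.09 ± 0.33 in co-culture (adjusted p = 0.000778). In co-culture Osmr differed from MEFs alone by 0.56 ± 0.33 in WT and 0.98 ± 0.33 in null MEFs, with no overlap, and neither passed in the fit of all arrays (adjusted p = 0.368 and 0.219). Both passed with each cell type fitted alone (adjusted p = 0.0151 and 0.00241), with normexp (0.54 and 0.94, adjusted p = 0.0412 and 0.00992) and without either array of tumor cells with null MEFs (adjusted p = 0.00913 and 6e-04). The arrays of that group stood 1.42 apart.

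In tumor cells Osmr rose with both partners. With WT MEFs it reached 10.76 and 10.59, a difference of 3.58 ± 0.33 (adjusted p = 8.5e-05), and with null MEFs 10.58 and 12, a difference of 4.19 ± 0.33 (adjusted p = 1.04e-05). Because WT MEFs hold so much Osmr, the gain with WT MEFs was only 8.37% and 8.42% of their level, above 205 and 211 of 329 typical genes. With null MEFs it was 31.5% and 99.5% of the partner's level, above 235 and 240 of 252. Subtracted and centred, the difference was 1.34 with WT MEFs (adjusted p = 0.124), 4.16 with null MEFs (adjusted p = 0.000136) and -2.82 between the partners (adjusted p = 0.00249). Before subtraction the last was -0.62 ± 0.33 (adjusted p = 0.304), with 0.18 and -1.41 on the slides. It passed without tumor cells with null MEFs on slide A (-1.33, adjusted p = 0.00017) and on the scanner values with 75th percentile scaling, which lack that array (-1.27, adjusted p = 0.0173). The fibroblast markers rose for 6 of 13 in tumor cells with null MEFs and for 12 of 13 with WT MEFs, where 10.1% and 7.04% of tested genes rose. The 2 counts are not alike, since 9 of the 13 were lower in tumor cells than in null MEFs, both alone, and 12 lower than in WT MEFs. Genes typical of the partner reached 9.83% and 22.1% with null MEFs and 7.49% and 7.40% with WT MEFs.

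Lifr encodes the LIF receptor and is read by 3 probes. It was highest in WT MEFs alone, at 10.75 and 10.88, and stood at 10.21 and 10.31 with tumor cells. Null MEFs stood at 9.95 and 9.93 alone and 10.10 and 10.33 with tumor cells. WT MEFs exceeded null MEFs alone by 0.87 ± 0.20 (adjusted p = 0.00617), a call lost on the scanner values (0.73 to 1.41). There the outlier spots left out differ between arrays, and null MEFs alone on slide A kept only the dimmest Lifr probe. The loss therefore cannot be told apart from the change of probes. In co-culture the difference was 0.04 ± 0.20 (adjusted p = 0.923), and subtracted and centred it was 0.76 and passed (adjusted p = 0.0232). With tumor cells, Lifr in WT MEFs changed by -0.56 ± 0.20 (adjusted p = 0.115). Subtracted, that change was -0.67 without centring (adjusted p = 0.00417) and 0.28 with it (adjusted p = 0.456). The test of the difference between the responses gave -0.83 ± 0.28 (adjusted p = 0.206). Subtracted without centring, that difference was -0.87 and passed (adjusted p = 0.026). It passed with each cell type fitted alone (adjusted p = 0.0393) and without either array of tumor cells with null MEFs (adjusted p = 0.0179), and subtracted and centred it was -0.11 (adjusted p = 0.919).

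Tumor cells had less Lifr, and its level differed between the partners. They stood at 8.25 and 8.31 alone, 7.89 and 7.96 with WT MEFs and 8.96 and 9.73 with null MEFs, with no overlap. Lifr rose with null MEFs by 1.07 ± 0.20 (adjusted p = 0.00442), and it was 1.42 ± 0.20 lower with WT than with null MEFs (adjusted p = 0.00145). The rise was lost under 3 of 24 alternatives: on the scanner values with 75th percentile scaling (1.59) or normexp (1.28) and with each cell type fitted alone (1.07, adjusted p = 0.0576). The difference between partners was lost under 2, the same scanner settings (-2.38 and -1.91). On these settings slide A of tumor cells with WT MEFs lacks the brightest Lifr probe, and the other 2 tumor groups have 1 array each. These losses cannot be told apart from the change of probes and arrays. With WT MEFs it was the receptor that went down in value on both slides, by 0.36 and 0.35 (-0.35 ± 0.20, adjusted p = 0.303). Subtracted and centred that difference was -0.85 (adjusted p = 0.0639), the rise with null MEFs 0.98 (adjusted p = 0.0203) and the difference between partners -1.83 (adjusted p = 0.000637). Without the centring the difference with WT MEFs was -1.03 and passed (adjusted p = 0.00626). On slide B the 3 probes put tumor cells with WT MEFs below those with null MEFs by -2.12, -2.48 and -1.65 (transcript variant 1, variant 2 and variant 1), so they share the direction. Between WT and null MEFs alone they gave 0.73, 1.31 and 0.93 on that slide, and the variant 2 probe lies at mm9 chr15:7135072-7135131.

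Stat3 encodes the factor that most of these receptors activate, and it is read by 2 probes. It was higher in MEFs, at 13.45 and 13.49 in WT and 12.78 and 12.76 in null MEFs alone, than in tumor cells alone at 11.40 and 11.56. Tumor cells with WT MEFs stood at 12.01 and 12.02 and those with null MEFs at 12.55 and 13.12. The rise with null MEFs was 1.36 ± 0.22 (adjusted p = 0.00168) and with WT MEFs 0.54 ± 0.22 (adjusted p = 0.145). The difference between partners was -0.82 ± 0.22 (adjusted p = 0.04), a call lost under 16 of 24 alternatives. The rise with null MEFs was lost under 2 of 24, on the scanner values with 75th percentile scaling (1.56, adjusted p = 0.138) or normexp (1.27, adjusted p = 0.0968). In MEFs, Stat3 was 0.70 ± 0.22 higher in WT than in null cells alone (adjusted p = 0.0299). That call was lost under 6 of 22 alternatives: on the same scanner settings (0.55 and 0.47, adjusted p = 0.371 and 0.28) and without any of the 4 arrays of MEFs alone (0.68 to 0.71, adjusted p = 0.0995 to 0.115). On these scanner settings both Stat3 probes weighed alike, though 1 was far dimmer (median intensity 119.7 against 14539.4). Between WT and null MEFs alone the dim probe gave 0.15 and 0.65 on the slides and the bright one 0.72 and 0.68. The losses on these settings cannot be told apart from this weighting or from the arrays left out. Co-culture gave 0.20 ± 0.22 in WT and 0.53 ± 0.22 in null MEFs, neither past the threshold. Subtracted and centred, the difference in WT MEFs was 0.96 and passed (adjusted p = 0.0255). Without the centring it was 0.01 and did not pass (adjusted p = 0.946).

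Socs3 encodes the feedback inhibitor of gp130, and its mRNA is a common readout of STAT3 activity. Null MEFs alone were lowest, at 12.52 and 12.48, and rose with tumor cells to 13.63 and 14.30. WT MEFs went from 13.47 and 12.83 to 14.10 and 14.11. The rises were 1.47 ± 0.23 in null MEFs (adjusted p = 0.00465) and 0.95 ± 0.23 in WT MEFs (adjusted p = 0.0264), and the responses did not differ past the threshold (-0.51 ± 0.33, adjusted p = 0.648). The gain in null MEFs was 32.3% and 59.4% of the tumor cells' level, above 85 and 89 of 90 typical genes, and subtracted and centred the rise was 1.46 (adjusted p = 0.019). In WT MEFs the gain was 37% and 71.7%, above 36 and 74 of 77, and subtracted and centred the rise was 1.31 (adjusted p = 0.0113). Subtracted without centring it was 0.36 and did not pass (adjusted p = 0.176), so that call rests on the centring. The rise in WT MEFs was lost under 8 of 24 alternatives and that in null MEFs under 2 of 24.

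In tumor cells Socs3 rose with null MEFs. It stood at 13.45 and 13.63 alone, 14.04 and 13.83 with WT MEFs and 14.37 and 14.57 with null MEFs. The rise with null MEFs was 0.93 ± 0.23 (adjusted p = 0.0196) and with WT MEFs 0.39 ± 0.23 (adjusted p = 0.336). The first was lost under 6 of 24 alternatives. Between partners the difference was -0.54 ± 0.23 (adjusted p = 0.198).

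The Socs3 promoter (GRCm38.p6, chr11:117969367-117969616, minus strand, shown 5′ to 3′ along the gene) holds the STAT palindrome, 154 to 146 bases before the start. It is in capitals below.
Socs3: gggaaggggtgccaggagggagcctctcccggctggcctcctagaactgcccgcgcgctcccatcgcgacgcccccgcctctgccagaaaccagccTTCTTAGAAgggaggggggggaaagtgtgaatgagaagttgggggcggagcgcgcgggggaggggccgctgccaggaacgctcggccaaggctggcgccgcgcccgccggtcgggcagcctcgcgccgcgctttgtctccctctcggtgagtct

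Few other ligands of the family passed between co-culture and cells alone. Of 7 tested ligands and partner chains, 2 rose in tumor cells with WT MEFs and 1 with null MEFs, and in WT MEFs with tumor cells 1 fell. Among all tested genes 7.04% and 10.1% rose in the tumor cells and 4.20% fell in these MEFs. The medians of the list were -0.09, -0.04 and -0.07, beside -0.04, -0.09 and -0.04 over all tested genes. Osm, which encodes the ligand of the oncostatin M receptor, lay between 5.70 and 6.0 in the group means, was not well above background in tumor cells alone or with WT MEFs, and had no difference past the threshold. Ebi3, a chain shared by other cytokines of the class, rose in tumor cells with WT and with null MEFs by 0.52 ± 0.13 and 0.54 ± 0.13 (adjusted p = 0.0314 and 0.0183), from a level not well above background in tumor cells alone, so at least 1.43-fold and 1.45-fold.

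Few other receptors changed with co-culture. Of 6 tested, 0 passed in tumor cells with WT MEFs by limma, 1 rose with null MEFs and 1 fell in WT MEFs with tumor cells, with list medians of 0.09, -0.01 and 0.02 beside the same medians and shares of all tested genes. Both were Il11ra1, the specific receptor of IL-11. It was higher in MEFs, at 16.44 ± 0.07 in WT and 16.36 ± 0.13 in null cells alone, than in tumor cells alone, at 12.31 ± 0.26. In WT MEFs it fell by 0.79 ± 0.21 with tumor cells (adjusted p = 0.0345), and in tumor cells it rose by 0.80 ± 0.21 with null MEFs (adjusted p = 0.0219). Each change was toward the level of the partner, and the part of partner RNA in it was not tested. Cntfr, the receptor that binds CLCF1, stood at 6.47 ± 0.11 in tumor cells alone, 7.74 ± 0.27 in WT and 7.39 ± 0.06 in null MEFs without tumor cells. It was lower in tumor cells than in WT or null MEFs (-1.27 ± 0.13 and -0.92 ± 0.13, adjusted p = 1.42e-05 and 0.000152), and it did not pass in the 8 comparisons within a cell type. Il11 thus had its highest level in tumor cells and Il11ra1 its highest in MEFs. Between WT and null MEFs, 1 of the 6 was higher and 1 lower in WT in each setting, where 33.8% of tested genes passed alone and 29.5% in co-culture. Il31ra was higher, by 0.76 ± 0.19 alone and 1.02 ± 0.19 in co-culture. Il27ra was lower, at -1.31 ± 0.12 and -1.01 ± 0.12.

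Among 12 kinases and regulators, 2 rose in tumor cells with WT MEFs and 5 with null MEFs, and none fell past the threshold, where 7.04% and 10.1% of tested genes rose. The list medians were 0.21 and 0.52, beside -0.04 and -0.09 over all tested genes. Socs1, another inhibitor of JAK signalling, rose in tumor cells with null MEFs by 0.65 ± 0.18 and in null MEFs with tumor cells by 0.89 ± 0.18 (adjusted p = 0.0285 and 0.0203). Stat5a rose in tumor cells with either partner, by 1.19 ± 0.17 with WT and 0.77 ± 0.17 with null MEFs (adjusted p = 0.00113 and 0.00934). Jak1 was 0.86 ± 0.14 higher in WT than in null MEFs alone (adjusted p = 0.000663), and Jak2 did not pass in any comparison within a cell type, with 0.52 ± 0.17 in tumor cells with null MEFs as its smallest adjusted p (0.059). Ptpn6, a phosphatase of blood and epithelial cells, rose by 2.41 ± 0.21 in WT MEFs with tumor cells (adjusted p = 3.05e-05), and the MEF responses differed by 2.34 ± 0.30 (adjusted p = 0.00184). Tumor cells alone had 3.43 ± 0.21 more Ptpn6 than WT MEFs alone. Genes typical of tumor cells reached 37.7% and 38.4% in these WT MEFs and 7.64% and 10.4% in null MEFs. The part of tumor cell RNA in both Ptpn6 results was not tested.

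Some known STAT3 target genes rose in each co-culture. Of 19 tested, 4 rose and 1 fell in tumor cells with WT MEFs, and 8 rose with null MEFs, with medians of 0.33 and 0.28. Over all tested genes 7.04% rose and 4.77% fell with WT MEFs and 10.1% rose with null MEFs, with medians of -0.04 and -0.09. In WT MEFs 8 rose and in null MEFs 7 rose, where 6.31% and 2.81% of tested genes did, with medians of 0.52 and 0.62 beside -0.04 in each. Saa3, an acute-phase protein, was not well above background in tumor cells alone (6.22 ± 0.08), and it rose by 1.62 ± 0.22 with WT MEFs and by 4.51 ± 0.22 with null MEFs (adjusted p = 0.00109 and 2.95e-07), or at least 3.07-fold and 22.8-fold. Lcn2, the iron carrier lipocalin 2, rose by 1.51 ± 0.24 and 3.17 ± 0.24 in the same cells (adjusted p = 0.00274 and 8.13e-06). Between partners 5 of the 19 targets were lower with WT MEFs and 0 higher by limma, with Saa3 at -2.89 ± 0.22, Lcn2 at -1.66 ± 0.24 and Cebpd at -1.45 ± 0.21. Over all tested genes 5.38% were lower and 4.11% higher there, and the medians were -0.18 for the targets and 0.04 for all. The part of MEF RNA in these differences was not tested. In MEFs Lcn2 rose by 3.44 ± 0.24 in WT and by 1.84 ± 0.24 in null cells, and Ccnd1, which encodes cyclin D1, by 0.82 ± 0.10 and 3.22 ± 0.10. Ccnd1 was 15.61 ± 0.09 in tumor cells alone and 10.11 ± 0.06 in null MEFs alone, and the part of tumor cell RNA in its rise was not tested.

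The genes whose values over the 14 arrays were most like those of a member are given as a description, since the arrays share groups and slides. Osmr was closest to Itih2 (Pearson r = 0.996), Bmp4 (0.983) and Nsg1 (0.983). Il11 was closest to Ahr (0.981), Rin1 (0.980) and Fgf2 (0.980), and Socs3 to Aldh3a1 (0.924), Hlf (0.911) and Ugt1a6b (0.907). Lif was closest to an unnamed transcript (0.964), Abl2 (0.953) and Serpinb6b (0.950). Il6, whose values include the array with the outlier spot, was closest to Snhg12 (0.892), LOC674761 (0.864) and Tmem140 (0.864).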

How the data were processed

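Gene expression was measured on 14 Agilent arrays (design 028005, annotated on mm9, per the file headers), 2 for each of 7 groups. The authors' deposited value table gives log2 levels, 1 line per gene name, whose scaling between arrays is not given in the sources used here; array medians ran from 6.34 to 6.40. The deposited scanner files give processed intensity per spot from Agilent Feature Extraction, version 10.1.1.1 per the file headers and 9.1 per the submitters' processing notes.

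The main test was limma 3.58.1 (R 4.3.3) on the deposited log2 values, with 1 mean per group, all 7 groups in 1 fit and 7 residual degrees of freedom. P-values were Benjamini-Hochberg adjusted over 25896 tested gene names, with a threshold of 0.05. The procedure was tested on simulated data. Differences within slide A and slide B were also computed. The slide and the replicate letter are the same thing here, and deviations from group means correlated between same-lettered arrays at 0.092 to 0.599 (median 0.298, over 0.1 in 20 of 21 group pairs). The letter comes from the labels and the slide from the scanner files.

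Alternatives were the scanner values of the 12 sound arrays (75th percentile scaling with outlier spots left out, the brightest probe, or normexp with an offset of 50 and quantile normalization), quantile normalization of the value table, other filters, the slide as a replicate block, each cell type fitted alone, subtraction of the median partner share, the same with each array centred on its own median (added after seeing the data), and leaving out each array. A fold against a group not well above background is given as "at least". For tumor cells alone and tumor cells with null MEFs, signal over background was read on slide B only, since their slide A scanner files were faulty. Named genes were the 10 members, at most the 3 genes of the smallest p per pathway list and comparison, some pathway genes by role (Osm, Cntfr, Il11ra1, Il11ra2, Jak1, Jak2 and Socs1, of which Il11ra2 is not among the array's names), Hsf1 as a check, and the 3 genes most correlated with Il6, Il11, Lif, Osmr and Socs3. The members and lists were chosen with earlier results of these data known. Promoters came from RefSeq (GRCm38.p6). Some genes of the lists are not reported here.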

Additional observations from a re-analysis of the deposited data

Results flagged for a closer look

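The response of Il6ra to co-culture differed between the MEF genotypes by 2.26 ± 0.30 (limma adjusted p = 0.0024), which is the reason it is listed here. Il6ra rose by 3.98 in WT MEFs and by 1.72 in null MEFs, and the difference was 2.81 on slide A and 1.71 on slide B. WT MEFs began at 9.19 ± 0.16 and null MEFs at 10.99 ± 0.04 (SD, n = 2), and they reached 13.17 ± 0.03 and 12.72 ± 0.54. The difference stayed past the threshold under all 24 alternatives, between 1.5 and 2.64. Genes typical of tumor cells reached 37.7% and 38.4% of the tumor cells' level in these WT MEFs and 7.64% and 10.4% in these null MEFs.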

How the results depend on the processing

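Of the 31 member calls in the 8 comparisons within a cell type, 13 stayed past the threshold in the same direction under every alternative run. They include all 3 calls between WT and null MEFs in co-culture and 0 of the 3 between tumor cells with WT and with null MEFs. Over single members and alternatives, 2102 values kept their side of the threshold with no called value reversed, 116 lost a call, 75 gained one and 7 were called values that reversed. Of the 2102, 36 turned in sign while not called in either fit.

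The 7 reversals of a called value came from subtracting the median partner share. That step moved the median of all tested genes to -0.778 in WT MEFs with tumor cells, -0.187 in null MEFs, -0.619 between them and -0.605 for the difference of responses. Without centring, 17873 and 7896 of 25896 genes passed in the last 2, against 7641 and 784 as reported. In WT MEFs with tumor cells Clcf1 became -0.37, Il11 -0.70 and Lif -0.74, and in null MEFs Il11 became -2.75. Clcf1 became -0.47 between WT and null MEFs in co-culture and -0.71 for the difference of responses. That subtraction also gave 5 in place of 3 members between WT and null MEFs in co-culture and 4 in place of 1 for the difference of responses. With each array also centred, an alternative added after seeing the data, 1 reversal was left (Il11 in null MEFs, -2.56). The counts were then 1 in place of 3 in tumor cells with WT MEFs, 5 in place of 3 between partners, 5 in place of 3 between WT and null MEFs in co-culture and 2 in place of 1 for the difference of responses.

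In tumor cells with null MEFs the count of 8 fell to 3 on the 12 sound scanner arrays with 75th percentile scaling, to 4 with normexp and to 4 with each cell type fitted alone, where the scanner values leave 1 array in each of these groups, a lone array that is assumed to vary like the other groups. Between partners the count of 3 fell to 1 with no filter on dim genes and to 1 with each cell type fitted alone, and for the difference of responses 1 became 2 in the latter. Apart from the sample numbers, the cause was not tested.

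Leaving out 1 array gave 2 to 4 members in tumor cells with WT MEFs, 5 to 9 with null MEFs (5 without tumor cells with null MEFs B) and 1 to 3 between partners. The last fell to 1 without tumor cells with null MEFs B or without either array of tumor cells alone, WT MEFs alone or null MEFs alone. It gave 2 to 6 in WT MEFs (2 without co-cultured WT MEFs B), 3 to 4 in null MEFs, 5 to 7 between genotypes alone and 3 to 6 in co-culture (6 without co-cultured null MEFs B). For the difference of responses it gave 1 to 2 (2 without tumor cells with null MEFs A or B), and for tumor cells against WT and null MEFs 8 to 10 and 9 to 10.

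With the slide as a replicate block, 4 calls were added and none of the others changed: Il6ra in tumor cells with WT MEFs (0.72, limma adjusted p = 0.0301), and Clcf1 in tumor cells with null MEFs (0.42, adjusted p = 0.0353), in null MEFs with tumor cells (0.65, adjusted p = 0.0177) and between genotypes in co-culture (0.45, adjusted p = 0.0199). Signal over background limits Il6 in tumor cells alone and Lif in MEFs alone.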
